A study of Mus musculus with 2 samples.

Results

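Mitochondrial fatty acid oxidation was followed through 10 genes in regenerating mouse liver, namely Cpt1a, Cpt2, Slc25a20, Acads, Acadm, Acadl, Acadvl, Hadha, Hadhb and Etfdh. They were chosen by symbol, with earlier results of these data known. Each of the 10 was found in 1 row of the deposited table. There were 33224 gene symbols there, 11723 of them with a mean FPKM (fragments divided by exon length in kilobases and by library size) of at least 1. Hepatic RNA came from male C57BL/6 mice with a genotype of wild type (WT) or PPARbeta-null (KO), tagged as 4 months old, and the study's text places the collection 48 hr after partial hepatectomy (PH) in both. Food and water were freely given to both genotypes. There was 1 library per genotype, and whether a library held 1 mouse or several is not given in the sources used here. The labels do not describe how the null allele was made. The comparison asks which hepatic transcripts differ without PPARbeta during regeneration. The study's text reports that cell proliferation after PH came later in KO than in WT. Genotype and stage of regeneration thus cannot be told apart at 48 hr. No difference below has a replicate check, and no test between the genotypes could be made.

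Fatty acids are oxidized in the mitochondrial matrix in a spiral that shortens an acyl-CoA by an acetyl-CoA in each turn. Long chains enter through the carnitine shuttle, in which Cpt1a on the outer membrane makes acylcarnitine, Slc25a20 carries it across the inner membrane and Cpt2 turns it back to acyl-CoA. Acyl-CoA dehydrogenases of differing chain-length preference start each turn, and the trifunctional protein of Hadha and Hadhb carries out the remaining steps for long chains. The electrons pass through the electron transfer flavoprotein (ETF) to Etfdh and from there to ubiquinone. In liver the pathway is best known for its role in fasting and as a set of target genes of PPARα.

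Hadha and Hadhb lie head to head on chromosome 5. The 85 bases between their outermost starts in GENCODE vM1 are shown because these genes encode the subunits of a single complex. The stretch is given on the plus strand of NCBIM37 with the matches to the GC box GGGCGG in capitals, and it holds no TATAAA.
Hadha to Hadhb, chr5:30481703-30481787: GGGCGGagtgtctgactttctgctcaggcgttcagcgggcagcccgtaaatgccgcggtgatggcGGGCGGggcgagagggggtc
Promoter windows from RefSeq on GRCm38.p6, each 300 bases long, were found for all 10 genes and searched on both strands. In these windows Hadha has a different start, and the first GC box printed above lies at -188 to -183 from it. The direct repeat that PPARs and their partner RXR are known to bind, 2 copies of AGGTCA with any base between them and up to 2 mismatches, was in 1 of the 10 windows, that of Slc25a20, and in 3.86% of all 32851 windows. The palindrome known to bind NRF1 was also in 1 window, that of Etfdh, against 0.971% of all windows. Both matches, the only ones to these motifs in the 10 windows, are shown in capitals, each on the strand of its gene. A link between either match and the KO/WT ratios was not tested.
Slc25a20, bases 7 to 19 of the transcript, chr9:108662134-108662162: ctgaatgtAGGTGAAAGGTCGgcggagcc
Etfdh, bases -128 to -119 from the start, chr3:79628876-79628905: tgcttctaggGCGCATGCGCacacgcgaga
The GC box was in 8 of the 10 windows and in 35.7% of all windows. The windows of Hadha and Hadhb overlap, and the only GC box of Hadha is also counted for Hadhb. The GC box was searched only after the other results were known, as was TATAAA, which was in 0 of the 10 windows and in 13.6% of all. CCAAT was in 2 windows against 37.4% of all, while TCAAGGTCA, CACGTG and TGACGTCA were in 0 of the 10 windows and in 0.423%, 7.15% and 1.79% of all. The median GC content of the 10 windows was 59.7%, against 52.7% over all windows.

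The lowest FPKM values of single-exon genes clustered weakly at multiples of a step, taken here as 1 fragment. The periodicity was 0.213 in WT and 0.277 in KO, where exact multiples would give 1. On this step, an FPKM of 1 on a transcript of 1 kb stood for about 52.1 fragments (WT) or 53.2 fragments (KO). By this estimate between 3298 and 29267 fragments stood behind each value of the 10 genes. The 95% exact binomial intervals given with the ratios cover this counting error only, not the difference between mice. Ppard, the targeted gene, was at 2.67 FPKM in WT and 2.42 FPKM in KO over its full locus, too close to check the labels, and its single exons were not analysed here. Of 9 hepatocyte markers, 6 were higher and 3 lower in KO, with a summed FPKM of 20227 in WT and 22741 in KO. Their KO/WT ratios ran from 0.465 to 1.68. Above 1.5-fold, 1 was higher and 2 were lower, against 4.2% and 19.9% of expressed genes. Markers of other liver cells were mostly lower in KO, as were 75.6% of expressed genes. The summed FPKM was 59.7 in WT and 37.3 in KO for macrophages, with 6 of 7 genes lower, 26.6 and 15.7 for endothelial cells, with 5 of 5 lower, and 25.1 and 13 for stellate cells, with 5 of 5 lower. It was 5.33 and 3.03 for cholangiocytes, with 4 of 4 lower, and 12.9 and 6.91 for neutrophils, of which Ly6g and Mpo were listed at 0 in both libraries. Markers of T and B lymphocytes summed to 0.339 and 0.23 and those of pancreatic acinar cells to 0.394 and 0.0798, with Cpa1 and Prss2 listed at 0. Those of adipocytes summed to 18.1 and 17.4, of which Fabp4 alone was 18.1 and 17.4. In bulk RNA, fewer cells of a type and less RNA per cell cannot be told apart, and the part of cell makeup in the results was not tested.

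Of the 10 genes of mitochondrial fatty acid oxidation, 9 had a higher FPKM in the KO library and 1, Acads, was slightly lower as deposited but higher in KO under 3 of the 4 other scalings described below. Among all expressed genes, 24.4% were higher in KO. The 9 ratios ran from 1.36 for Cpt2 to 1.81 for Slc25a20, and the median KO/WT ratio of the 10 genes was 1.53. More than a 1.5-fold higher FPKM in KO was found for 5 of them, Slc25a20, Acadl, Etfdh, Acadvl and Cpt1a, against 4.2% of expressed genes. A 2-fold higher FPKM was passed by 0 of the 10, against 1.77% of expressed genes. Lower values in KO by more than 1.5-fold or 2-fold were found for 0 of the 10, against 19.9% and 8.69% of expressed genes. Among genes with a mean of at least 10 FPKM, these shares were 13.3% and 5.07%, and 4.97% were more than 1.5-fold higher. The summed FPKM of the 10 genes was 836 in WT and 1230.0 in KO.

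**Figure D1:**
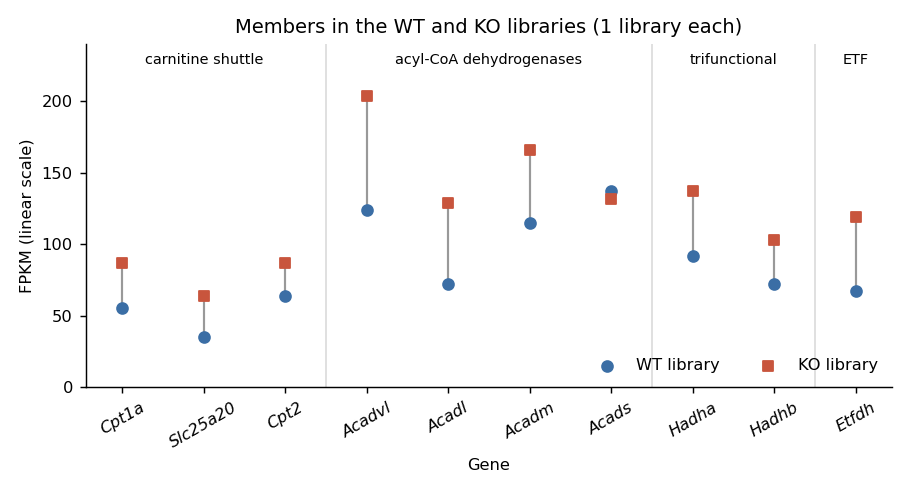
FPKM of the 10 genes (vertical axis, linear) in the WT library (circles) and the KO library (squares), 1 library each and no error bars, with lines joining the values of a gene and ETF marking electron transfer. The square lies above the circle for 9 genes, while for Acads the values of 137 and 132 nearly coincide.

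In the carnitine shuttle, the genes of all 3 steps were higher in KO. Cpt1a, the outer membrane enzyme that sets the rate of entry (chromosome 19, 3323301 to 3385732 on NCBIM37, 19 exons), was at 55.2 FPKM in WT and 86.9 FPKM in KO. Its KO/WT ratio was 1.58 (counting interval 1.54 to 1.61), and 96.6% of expressed genes had a lower one. Slc25a20, the carrier of the inner membrane (chromosome 9, 108564429 to 108586972, 9 exons), had the lowest FPKM of the 10 genes in both libraries, 35.5 in WT and 64.2 in KO. Its ratio of 1.81 (counting interval 1.73 to 1.89) was the highest of the 10. Cpt2, the matrix enzyme (chromosome 4, 107576585 to 107596215, 5 exons), was at 64.2 FPKM in WT and 87.3 FPKM in KO, and its ratio of 1.36 (counting interval 1.32 to 1.4) was the lowest of the 9 genes higher in KO. The steps thus differed in size within the shuttle. Relative to Cpt2, the FPKM of Slc25a20 was 0.553 in WT and 0.735 in KO, and that of Cpt1a was 0.859 and 0.996.

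The 4 acyl-CoA dehydrogenases differed in their KO/WT ratios. Acadvl, which prefers very long chains (chromosome 11, gene from 69823685 to 69828913, 20 exons), was at 124 FPKM in WT and 204 FPKM in KO, for a ratio of 1.64 (counting interval 1.61 to 1.68). Acadl, for long chains (chromosome 1, 66877413 to 66909851, 11 exons), had 72.6 in WT and 129 in KO, for a ratio of 1.78 (counting interval 1.73 to 1.83). Acadm, for medium chains (chromosome 3, 153585321 to 153607596, 12 exons), had 115 in WT and 166 in KO, for a ratio of 1.44 (counting interval 1.41 to 1.48). The gene for the shortest chains stood apart from these. Acads (chromosome 5, gene from 115560308 to 115569355, 10 exons) was at 137 FPKM in WT and 132 FPKM in KO, for a ratio of 0.967 (counting interval 0.944 to 0.991), so that 71.3% of expressed genes had a lower ratio. Its row also names Gm13826, a noncoding transcript annotated next to it on the same strand, and the value belongs to both.

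Acads was the most abundant of the 10 genes in WT and the fourth in KO, where Acadvl took the highest place. Of the summed FPKM of the 4 dehydrogenases, Acads made up 30.5% in WT and 20.9% in KO. The share of Acadvl was 27.7% in WT and 32.3% in KO and that of Acadl was 16.2% and 20.4%, while Acadm stayed near 25.7% and 26.3%. These shares lie within a library and do not depend on how the libraries are scaled. The interval that the table gives for Acadvl also spans Dvl2, whose own row was at 1.11 FPKM in WT and 1.02 FPKM in KO, and that of Acadl spans the pseudogene Gm15793, with 4.84 and 3.02. Reads at such overlaps can belong to either gene, since the use of strand in counting is not given in the sources used here.

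Hadha and Hadhb, the alpha and beta subunits of the trifunctional protein, had nearly the same ratio. Hadha (chromosome 5, gene from 30444841 to 30481702, 20 exons) was at 91.8 FPKM in WT and 137 FPKM in KO, for a ratio of 1.49 (counting interval 1.46 to 1.52). Hadhb (chromosome 5, gene from 30481788 to 30511133, 16 exons) had 72.6 in WT and 103 in KO, for a ratio of 1.43 (counting interval 1.38 to 1.47). Hadha thus lay just under the 1.5-fold line and Cpt1a, with 1.58, just above it. The FPKM of Hadha relative to Hadhb was 1.27 in WT and 1.32 in KO. Their outermost starts in GENCODE vM1 flank the 85 bases printed above.

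Etfdh, which hands the electrons of all acyl-CoA dehydrogenases to ubiquinone (chromosome 3, 79407710 to 79432785, 13 exons), was at 67.3 FPKM in WT and 119 FPKM in KO. The ratio was 1.77 (counting interval 1.72 to 1.81), and 97.6% of expressed genes had a lower one. The subunits of the flavoprotein that delivers these electrons had ratios near 1, and their median log2 value was -0.10 as deposited and 0.14 with the median of expressed genes set to 0. Etfa was at 192 FPKM in WT and 169 FPKM in KO, for a ratio of 0.884, and Etfb, whose row also names Cldnd2, had 237 and 234, for a ratio of 0.988. Within a library, the FPKM of Etfdh relative to Etfa was 0.351 in WT and 0.702 in KO.

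The 10 genes stood against a background that leaned the other way. The median log2 KO/WT, computed with a pseudocount of 0.1 FPKM, was 0.62 over the 10 genes and -0.24 over the 11723 expressed genes, of which 75.6% were lower in KO. The distance between these medians was 0.85, and 96.3% of expressed genes had a log2 ratio below the median of the 10. Acads, at -0.05, lay 0.19 above the median of expressed genes.

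**Figure D2:**
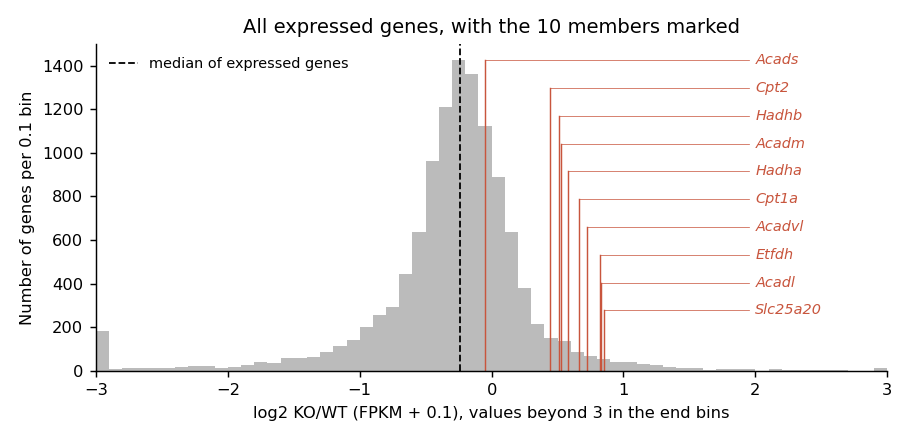
Histogram of log2 KO/WT (horizontal axis, FPKM + 0.1, bins of 0.1) over the 11723 expressed genes (vertical axis, number of genes), with the 10 genes as vertical lines and the median of -0.24 dashed. Apart from Acads at -0.05, the lines lie between 0.44 and 0.85, in the upper tail of the histogram.

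Since most genes were lower in KO, the scaling of the libraries bears on the counts. With the median of expressed genes set to 0, the KO values were multiplied by 1.18. All 10 genes were then higher in KO, against 49.6% of expressed genes, and 9 were above 1.5-fold, against 7.4%. The ratios then ran from 1.14 for Acads to 2.13 for Slc25a20. Equal sums of FPKM, the smallest correction, multiplied KO by 1.02. This left 9 genes higher and 6 above 1.5-fold, against 27.5% and 4.6% of expressed genes. Acads was thus lower or higher in KO depending on the scaling. The other 9 were higher as deposited and had to stay so, since every other scaling raised the KO values.

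**Figure D3:**
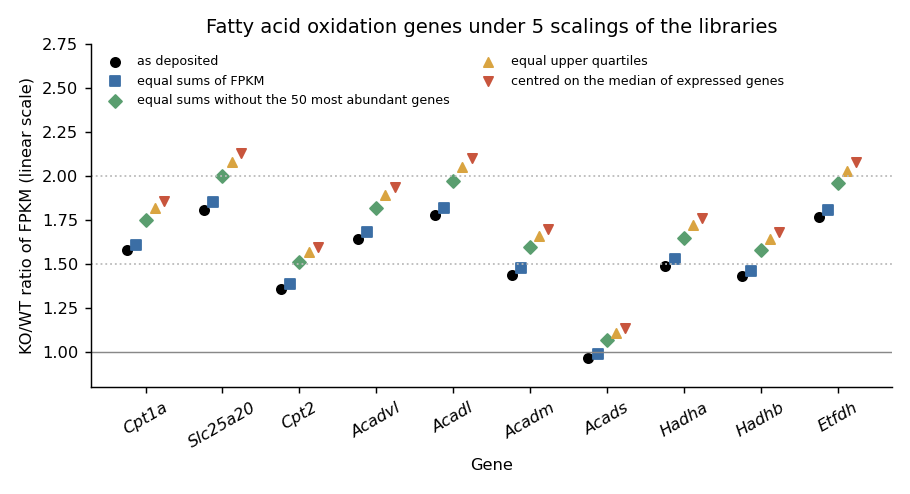
KO/WT ratio of FPKM (vertical axis, linear, with lines at 1, 1.5 and 2) of the 10 genes under 5 scalings of the libraries, shown by symbol and color. The ratio of Acads runs from 0.967 to 1.14 across the line at 1, and that of Slc25a20 from 1.81 to 2.13.

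Around the 10 genes, 30 other genes of the pathway were listed by step, and 29 of them had a mean FPKM of at least 0.1. Of these, 15 were higher and 14 lower in KO, where 24.4% of expressed genes were higher, and the median on the log2 scale was 0.06. Above 1.5-fold, 7 were higher and 5 lower, against 4.2% and 19.9% of expressed genes.

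Genes of carnitine uptake, transfer and synthesis were mostly higher in KO, 5 of the 6 whose mean reached 0.1 FPKM, against 24.4% of expressed genes. Above 1.5-fold, 2 were higher and 1 was lower, against 4.2% and 19.9% of expressed genes. Cpt1c, named after its values were seen as the 1 lower gene, had low values, at 0.228 FPKM in WT and 0.114 FPKM in KO. Slc22a5, the carnitine transporter of the plasma membrane, was at 7.6 FPKM in WT and 22.6 FPKM in KO, for a ratio of 2.97. Aldh9a1 and Bbox1, enzymes of carnitine synthesis, had ratios of 1.35 and 1.31. Cpt1b, the muscle form of the outer membrane enzyme, had 20.5 in WT and 21.3 in KO, in a row shared with Chkb. Tmlhe lies on an unplaced contig, and all 372 loci on such contigs were listed at 0.

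Malonyl-CoA inhibits Cpt1a, and the genes that make it went opposite to the gene that removes it. Acacb, the mitochondrial acetyl-CoA carboxylase, was at 17.2 FPKM in WT and 5.96 FPKM in KO, for a KO/WT ratio of 0.347. Acaca, the cytosolic form, had 13.2 and 5.43, for a ratio of 0.412. Mlycd, malonyl-CoA decarboxylase, had 24 in WT and 31 in KO, for a ratio of 1.29.

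The 3 enzymes that prepare unsaturated fatty acids for the spiral were all above 1.5-fold higher in KO, where 4.2% of expressed genes stood. Eci1, an enoyl-CoA isomerase, was at 43.9 FPKM in WT and 107 FPKM in KO, for a ratio of 2.43. Eci2, a related isomerase, had 84.1 and 159.7, for a ratio of 1.9, and Decr1, the dienoyl-CoA reductase, had 51.4 and 80.4, for a ratio of 1.56. Their median log2 KO/WT was 0.92.

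Enzymes of the later steps outside the trifunctional protein were spread more widely. Acaa2, the thiolase for medium chains, was at 311 FPKM in WT and 475 FPKM in KO, for a ratio of 1.53. Hsd17b10 and Hadh, which are hydroxyacyl-CoA dehydrogenases, had ratios of 1.16 and 1.04. Echs1, the short-chain enoyl-CoA hydratase, had 126 in WT and 93 in KO, for a ratio of 0.736.

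Of the 7 other acyl-CoA dehydrogenases, 5 were lower and 2 higher in KO, near the 75.6% of expressed genes that were lower. Their median on the log2 scale was -0.22, or 0.01 with the median of expressed genes set to 0. Above 1.5-fold, 1 was higher and 2 were lower, against 4.2% and 19.9% of expressed genes. Ivd and Gcdh, which act in the breakdown of leucine and of lysine and tryptophan, had ratios of 0.579 and 0.909. The propionyl-CoA pathway, which takes up the end product of odd chains, had 3 of 4 genes lower in KO, again near 75.6%. Its median of -0.23 became 0.00 with the median of expressed genes set to 0. The ratios were 0.854 for Pcca, 1.14 for Pccb, 0.743 for Mcee and 0.849 for Mut.

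**Figure D4:**
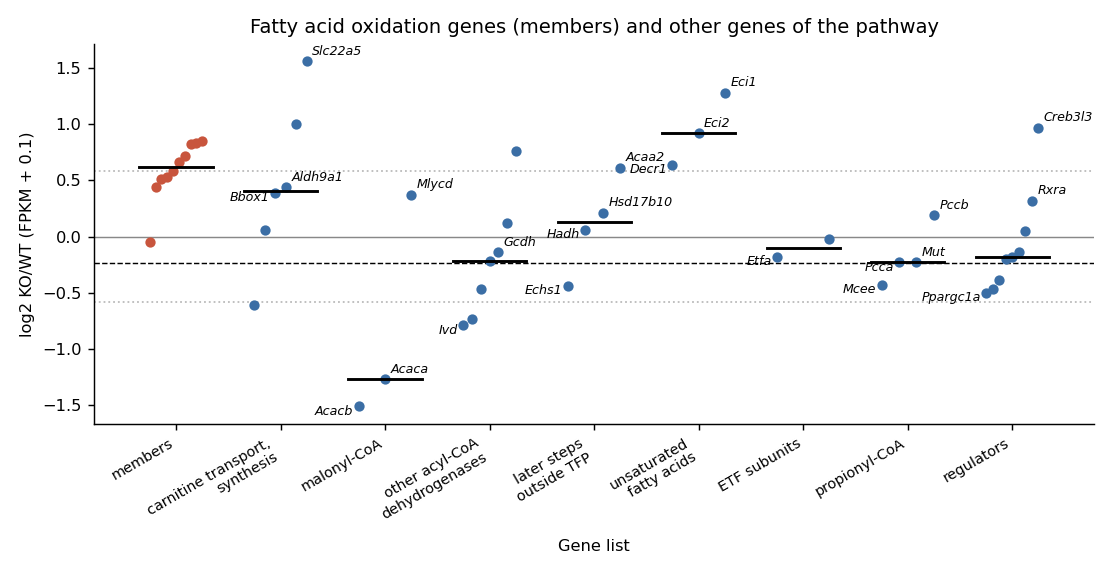
log2 KO/WT (vertical axis, FPKM + 0.1) of the 10 genes (left column, labelled members) and of the other lists of the pathway, with a point per gene (names at some), a bar at each median, a dashed line at the median of expressed genes and dotted lines at 1.5-fold. Points for unsaturated fatty acids run from 0.64 to 1.28 and those of the 10 genes from -0.05 to 0.85, while ETF subunits (-0.18 and -0.02) lie near 0 and Acacb (-1.51) and Acaca (-1.27) lie lowest.

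Among 9 regulators of the pathway, 3 were higher and 6 lower in KO, where 75.6% of expressed genes were lower. The 6 include Ppard, the targeted gene, with a ratio of 0.906. The median of the 9 on the log2 scale was -0.18, or 0.06 with the median of expressed genes set to 0. Creb3l3, a transcription factor of the fasting liver, was at 75 FPKM in WT and 147 FPKM in KO and was the only regulator above 1.5-fold, with a ratio of 1.96. Rxra, the partner of PPARs, had 91.2 in WT and 114 in KO, for a ratio of 1.25. Ppargc1a, a coactivator of mitochondrial genes, had 2.83 and 1.97, for a ratio of 0.697. Ppara itself, named after its values were seen, was at 24.4 FPKM in WT and 25.2 FPKM in KO. Esrra, in a row shared with Prdx5, had 193 and 147, for a ratio of 0.763.

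The higher values in KO were not shared by mitochondrial genes at large. Of 37 genes of oxidative phosphorylation, the citric acid cycle and mitochondrial import, pores and chaperones, 37 were lower in KO as deposited. Of expressed genes, 75.6% were lower as deposited. With the median of expressed genes set to 0, 33 of the 37 were lower and 4 higher, where 49.6% of expressed genes were higher. The deposited values gave ratios from 0.503 to 0.944. Above 1.5-fold, 9 of the 37 were lower, a share near the 19.9% of expressed genes. The median log2 KO/WT was -0.57 for 15 nuclear genes of oxidative phosphorylation, -0.48 for 9 genes of the citric acid cycle and -0.41 for 13 genes of import, pores and chaperones. Cox5a, a subunit of cytochrome oxidase, was at 262 FPKM in WT and 132 FPKM in KO, and Atp5b, the catalytic subunit of ATP synthase, had 820.4 and 552. Vdac1, a pore of the outer membrane, had a ratio of 0.542. The median of the 10 genes of fatty acid oxidation lay 1.19 above that of oxidative phosphorylation, 1.09 above the citric acid cycle and 1.03 above the third list on the log2 scale. These distances are nearly the same under any scaling of the libraries.

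Peroxisomal oxidation, which shortens very long chains before they reach the mitochondria, had genes with higher and with lower values in KO. Of its 17 genes 10 were higher and 7 lower, where 24.4% of expressed genes were higher, and the median on the log2 scale was 0.05. The median of the 10 mitochondrial genes lay 0.57 above it. Ehhadh, the bifunctional enzyme, was at 56.4 FPKM in WT and 166 FPKM in KO, whereas Abcd2, a transporter of very long chains, had 2.31 and 0.69. Among its abundant genes, Scp2 had a ratio of 1.37 and Phyh, in a row shared with Gm13194, a ratio of 0.992. Bdh1, which interconverts the ketone bodies made from the acetyl-CoA of the spiral, had a ratio of 2.26.

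**Figure D5:**
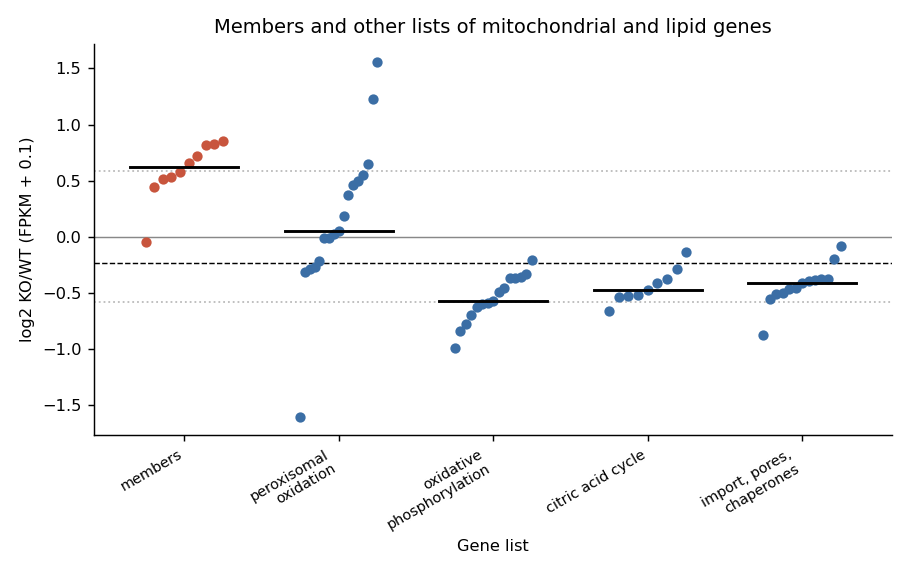
log2 KO/WT (vertical axis, FPKM + 0.1) of the 10 genes (left column, labelled members) and 4 other lists, with a point per gene, a bar at each median, a dashed line at the median of expressed genes and dotted lines at 1.5-fold. The median of the 10 genes, 0.62, lies above 0, and those of oxidative phosphorylation (-0.57), the citric acid cycle (-0.48) and import, pores and chaperones (-0.41) lie below it.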

How the data were processed

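By the methods and the submitters' processing notes, the authors aligned the reads with TopHat 2.0.0 to NCBI37 (mm9), assembled transcripts with Cufflinks 1.3.0 and obtained 1 FPKM per locus and library from Cuffdiff, and these FPKM values are what was analysed here. The methods describe single end reads and the labels paired end reads of 100 bp. The deposited table also holds the authors' own fold changes, test statistics, p-values and q-values, which were not used. Of 38016 loci, 21 marked HIDATA, Alb among them, which are listed at 0, were left out. Rows of a symbol were summed, and each symbol of a row with several symbols took its value.

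KO/WT ratios used the deposited FPKM directly. For log2 ratios 0.1 FPKM was added to both values, so that low genes appear less changed. Lists kept genes whose mean reached 0.1 FPKM, and expressed genes were those that reached 1. Fragments were estimated from single-exon genes of at least 800 nt and the longest coding transcript in GENCODE vM1 on NCBIM37, whose loci matched the table. Coordinates are counted from 1. Of lists with more than 5 genes, the 3 most abundant and those with the highest and lowest ratio were named, while marker lists are given by their sums and some genes are not reported here. Other genes are named as chosen after their values were seen, or because they share a locus with a named gene. Steps were tested on simulated libraries. The 10 genes and the lists were chosen with earlier results of these data known. Scripts ran under Python 3.11.15 with pandas 2.3.3, numpy 2.4.6 and scipy 1.17.1.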

Additional observations from a re-analysis of the deposited data

How the results depend on the processing

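No leave-one-out analysis was possible, since each genotype had 1 library. No paired analysis was possible because the groups share no replicate numbers beyond a single library each. Of 263 values recomputed under 12 alternatives, 193 stayed within the tolerance set for them, the counting interval for ratios. Taking the highest row of a symbol in place of the sum gave no value outside it. The scaling of the libraries moved most of the others, by construction alike for all genes.

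With the median of expressed genes set to 0, equal upper quartiles and equal sums without the 50 most abundant genes, the genes lower in KO numbered 0 of 10, those above 1.5-fold higher 9 in each case, and those above 2-fold higher 3, 3 and 1. Acads then had a KO/WT ratio of 1.14, 1.11 and 1.07. Of expressed genes, 49.6%, 45.6% and 39% were higher in KO under these scalings. Leaving out rows with several symbols removed Acads, so that 0 of the other 9 genes were lower in KO. The median of the 10 genes was 0.85 with the median of expressed genes set to 0. The median log2 KO/WT of expressed genes was 0.00, -0.04 and -0.09 under the 3 scalings, and that of the ETF subunits 0.14, 0.11 and 0.05. For import, pores and chaperones it was -0.18, -0.21 and -0.27. With the median of expressed genes set to 0 or equal upper quartiles it was -0.33 and -0.37 for oxidative phosphorylation, -0.24 and -0.27 for the citric acid cycle, and 0.06 and 0.03 for regulators. With the median of expressed genes set to 0 it was 0.01 for other acyl-CoA dehydrogenases and 0.00 for the propionyl-CoA pathway.

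Under the same pair of scalings, 7.4% and 6.79% of expressed genes were above 1.5-fold higher in KO, 12.1% and 12.8% above 1.5-fold lower, and 2.82% and 2.65% above 2-fold higher. When expressed genes were those reaching 0.1 FPKM, 2.79% were above 2-fold higher and 13.4% above 2-fold lower, and when they were those reaching 10 FPKM, 5.07% above 2-fold lower. Pseudocounts of 1 and 0.01 FPKM changed no direction of a list. By the estimated fragments, which rest on a weak periodicity, depth did not limit the 10 genes, whose counting intervals were at most 1.09-fold wide.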

Other observations

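Ratios between genes of the same library do not depend on the scaling of the libraries. The pairs below were chosen after their values were seen. The FPKM of Cpt1a relative to Acacb, which makes the malonyl-CoA that inhibits it, was 3.21 in WT and 14.6 in KO, and that of Mlycd relative to Acacb was 1.39 and 5.2. Acadvl relative to Acad9, another dehydrogenase of long chains, was 4.51 in WT and 12.3 in KO. The 10 genes also lay closer together in KO, where the highest FPKM was 3.18 times the lowest, against 3.86 times in WT. With 1 library per genotype these values describe the libraries.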
